A study of Mus musculus with 14 samples.

Results

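The genes examined here encode the intermediate filaments of neurons: Nefl, Nefm, Nefh, Ina and Prph, which were taken by symbol from the array's annotation. These are 5 of 16244 genes on the array, read by 7 probe sets in 7 pools of mouse medial vestibular nucleus neurons. This brainstem nucleus relays head motion signals that stabilise gaze and posture. Each pool held the amplified cDNA of single neurons of 1 type and was hybridised to 2 arrays, so the 14 arrays are technical pairs.

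By their labels 2 pools hold excitatory types (E1 and E2), and the other 5 hold inhibitory types of the families I1 (I1a, I1b), I2 and I3 (I3a, I3b). All 7 pools share their source labels: brainstem of the YFP-16, GIN and GlyT2-13 lines on a C57BL/6 background, aged 24 to 32 days after birth. In these 3 lines a fluorescent reporter is driven by regulatory sequences of Thy1, Gad1 and Slc6a5, so only neurons that use them are marked. Which line supplied which pool, and how many cells a pool held, is not given in the sources used here. The design also names a type E3, which was not analysed here. In a pool, fewer cells with a transcript and less transcript per cell cannot be told apart.

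Neurofilaments are the main intermediate filaments of mature axons. The light chain NF-L, from Nefl, forms the core of the filament and co-assembles with the medium chain NF-M, from Nefm, and the heavy chain NF-H, from Nefh. The long tails of NF-M and NF-H project from the filament and carry repeats that are heavily phosphorylated in the axon. Alpha-internexin, from Ina, joins them in central neurons and appears earlier in development, and peripherin, from Prph, is known from peripheral and motor neurons. Abundant neurofilaments are typical of large, myelinated, fast-conducting axons.

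Values are log2 signals, in which a step of 1 is a doubling of signal, with a floor of 2.39 shared by all arrays. A gene was tested when at least 1 pool reached a mean of 5, which 4 of the 5 members and 4409 genes in all did. Arrays of the same pool correlated at r = 0.981 to 0.992 across these genes. Neuronal markers were present: Snap25, a release protein of all neurons, read 12.40 to 13.57 in every pool, while Rbfox3, a nuclear protein of most neurons, read 10.45 and 10.78 in E1 and E2, 7.91 to 9.48 in I1a, I1b, I2 and I3a, and 5.39 in I3b. Syt1, a calcium sensor of release, read 6.68 in I3a and 9.38 to 11.47 elsewhere. Elavl4, an RNA-binding protein of neurons, read 8.94 and 9.34 in E1 and E2, and 9.72 and 9.39 in I1a and I1b. It read 10.59 in I2, 9.65 in I3a and 10.57 in I3b. For E minus I3 and I1 minus I3, 3 of these 4 markers were positive, the direction of the neurofilament genes below, and Elavl4 ran the opposite way. The median difference of the 4 was 1.47 for E minus I3 and 1.22 for I1 minus I3, and their part in the results was not tested. Slc32a1, which loads inhibitory transmitter into vesicles, read 9.20 to 9.76 in the I pools against 5.41 and 6.60 in E2 and E1. No marker of astrocytes (6 on the array), microglia (4), endothelium (2), Purkinje cells (3) or cholinergic motor neurons (4) reached 5 in any pool. Of 6 oligodendrocyte markers Mbp, a myelin protein, was the 1 that did, at 6.20 in I3a and 5.50 in I1b, against 2.43 to 3.43 in the other pools. The summed linear signal of these 6 was 57.0 to 58.9 in E1, E2, I1a and I2, 59.4 in I3b, 95.9 in I1b and 121 in I3a, and its part in the results below was not tested.

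A marker of the opposite class was also present in some inhibitory pools. Slc17a6, which loads glutamate into vesicles, read 11.11 in E1 and 10.98 in E2, and also 10.48 in I1b, 8.60 in I1a and 6.93 in I3a, against 3.19 in I3b and 3.11 in I2. It was thus high in the same 4 pools as the neurofilament genes below. The summed linear signal of 2 glutamatergic markers was 2215 in E1, 2023 in E2, 1432 in I1b, 392.3 in I1a, 127 in I3a, 14.5 in I3b and 13.9 in I2. The second of them, Slc17a7, read 2.82 at most, so the sum follows Slc17a6. Of the inhibitory markers, Gad1 read 7.80 and 6.80 in E1 and E2, Gad2 5.72 and 6.43, and Slc6a5 6.31 and 3.33, each below every I pool. The part of such transcripts in the results was not tested.

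**Figure D1:**
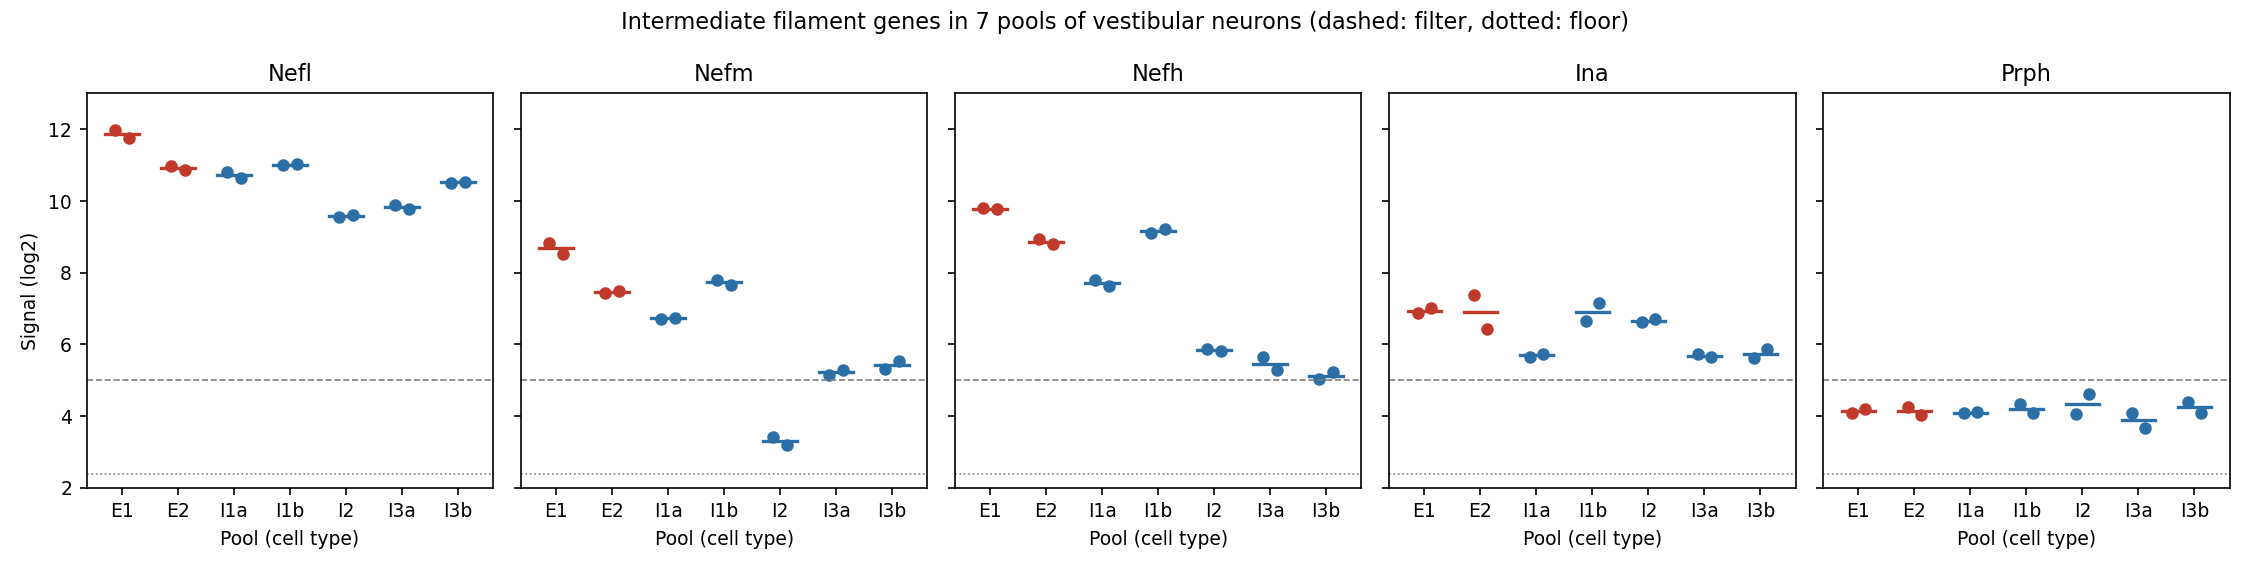
Log2 signal of each member (main probe set) in each pool: points are the 2 arrays, bars their mean, red excitatory and blue inhibitory types, the dashed line the filter at 5 and the dotted line the floor. Nefl, Nefm and Nefh are high in E1, I1b, E2 and I1a and lower in I2, I3a and I3b, while Prph lies below 5 on every array.

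The 3 neurofilament subunit genes ordered the pools E1, I1b, E2 and I1a from the top, and the inhibitory types I2, I3a and I3b came last. On the deposited values excitatory and inhibitory pools were therefore interleaved: I1b, an inhibitory type, read higher than the excitatory E2 for Nefl, Nefm and Nefh. These gaps were 0.10, 0.28 and 0.29, and the order was not read after rescaling of the arrays. For each of these genes the arrays of neighbouring pools in the order did not overlap. The gaps are between pools with 2 technical arrays each, and they do not measure the spread between animals.

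Nefl (Entrez gene 18039) lies on chromosome 14, positions 68083863 to 68089095 of GRCm38.p6, and encodes the core subunit NF-L. Its main probe set, number 1454672, read 11.98 and 11.75 in E1, and 10.99 and 11.04 in I1b. Next came E2, at 10.97 and 10.87, and I1a, at 10.82 and 10.65. In the remaining pools it read 10.51 and 10.53 in I3b, 9.88 and 9.78 in I3a, and 9.54 and 9.61 in I2. Nefl was thus well above the floor in every type, and the pools spanned 2.29 log2 units with a technical SD of 0.087 (7 residual degrees of freedom). The smallest gap in this order was 0.10, between I1b and E2, which is 1.13 technical SDs.

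A second Nefl probe set, number 1426255, ranked the 7 pools in the same order and spread them wider, over 4.13 log2 units. Its top value was 12.60 in E1, followed by 11.61 in I1b, then 11.31 in E2 and last 11.18 in I1a. Below these came I3b at 9.94, I3a at 8.87 and I2 at 8.47. The step from I1a to I3b was 1.25 log2 units by this probe set and 0.22 by the main one. The size of every Nefl difference therefore depends on the probe set, and its direction between groups does not in the 8 comparisons made.

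Nefm (Entrez gene 18040), on the same chromosome at positions 68119545 to 68125004, encodes NF-M. The gap between it and Nefl is 30449 bases, in which the annotation places 1 gene model, Gm19216. The single Nefm probe set read 8.84 and 8.52 in E1, 7.80 and 7.66 in I1b, 7.42 and 7.48 for E2, and 6.71 and 6.75 for I1a. It read 5.31 and 5.54 in I3b, 5.15 and 5.29 in I3a, and 3.41 and 3.20 in I2. Nefm spread the pools over 5.38 log2 units (technical SD 0.13), a wider range than 98.9% of the 4409 genes tested, whose median range was 1.13. In I2 it lay below the filter of 5, so differences with I2 depend on how low signals are read.

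Nefh (Entrez gene 380684; chromosome 11, positions 4938754 to 4948064) encodes NF-H, the subunit with the longest tail. Its arrays were at 9.80 and 9.77 for E1, 9.10 and 9.22 for I1b, 8.94 and 8.80 for E2, and 7.79 and 7.63 for I1a. In the low pools it read 5.88 and 5.83 in I2, 5.64 and 5.29 in I3a, and 5.04 and 5.22 in I3b, where I3a and I3b were close to the filter of 5. A step of 1.86 separated I1a, the lowest of the high pools, from I2. The range was 4.66 log2 units (technical SD 0.13), wider than 98.1% of genes tested. The lowest pool was I3b for Nefh and I2 for Nefl and Nefm.

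Ina (Entrez gene 226180; chromosome 19, positions 47014681 to 47025327) encodes alpha-internexin, and its pattern was different. Its main probe set, number 1418178, read 6.87 and 7.02 in E1, 7.39 and 6.44 in E2, 6.64 and 7.16 in I1b, and 6.62 and 6.70 in I2. It read 5.65 and 5.75 in I1a, 5.72 and 5.65 in I3a, and 5.62 and 5.87 in I3b. Within each of these sets of 4 and 3 pools, neighbours in the order overlapped between arrays, and a gap of 0.91 parted I2 from I3b. The range of 1.26 log2 units (technical SD 0.30) was wider than in 58.2% of genes.

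The second Ina probe set, number 1448991, also placed I3a and I3b lowest, at 4.49 and 4.73, but put I1a near the top at 6.55. The other pools read 6.64 in E1, 6.41 in I2, 6.20 in I1b and 6.18 in E2. The low value of I1a therefore rests on the main probe set alone, whereas the low values of both I3 pools were seen with both. Both I3 means of the second probe set lie below the filter of 5, so its differences with I3 depend on how low signals are read. I2, which had the lowest Nefl and Nefm, read within the range of the high pools for Ina with both probe sets.

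**Figure D2:**
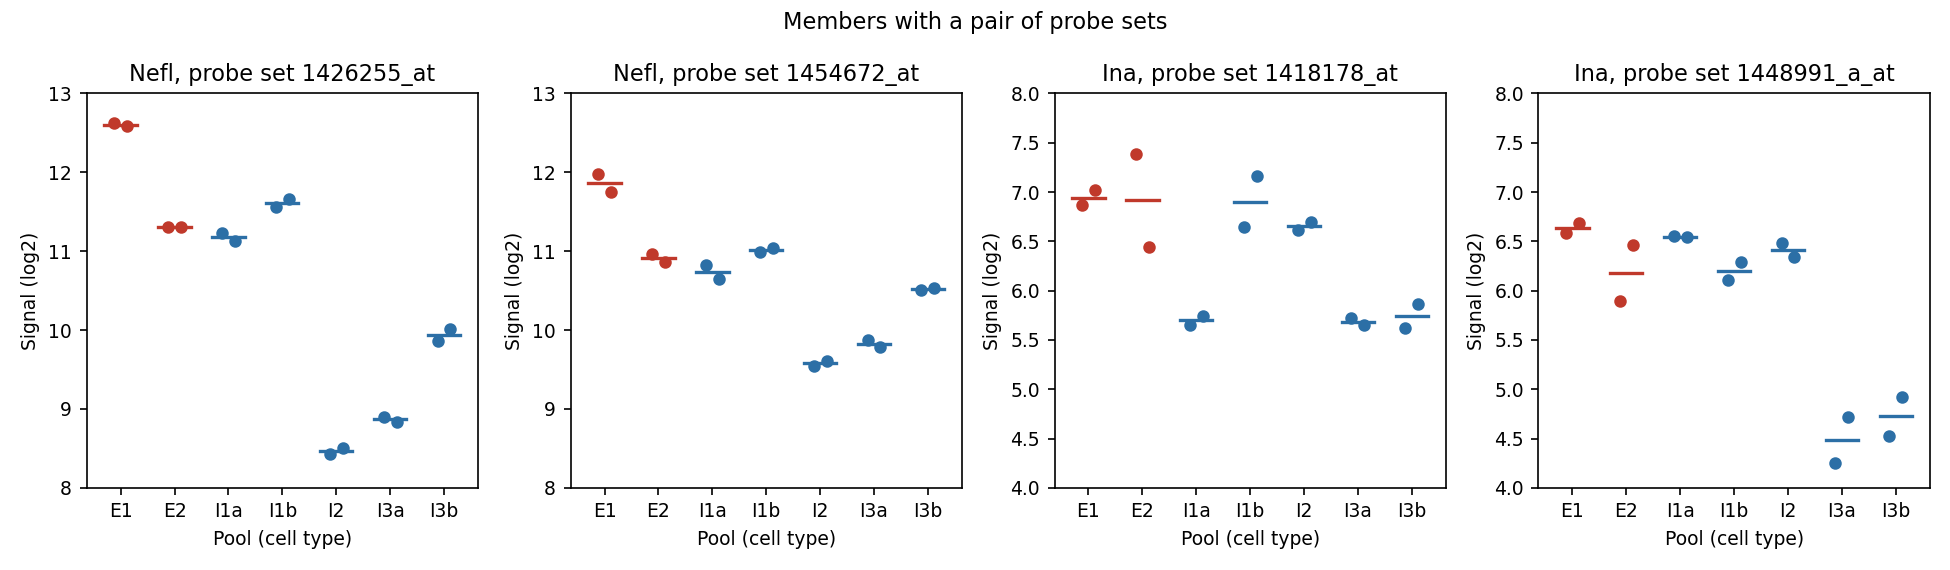
Log2 signal per pool for the 2 probe sets each of Nefl and Ina (points, arrays; bars, means). The Nefl probe sets order the pools alike over different ranges, 4.13 and 2.29, and the Ina probe sets differ in I1a, at 6.55 and 5.70.

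Prph (Entrez gene 19132; chromosome 15, positions 99053579 to 99058978) encodes peripherin. Its probe set, number 1420256, read 3.67 to 4.62 over the 14 arrays, pool means were 3.88 in I3a to 4.35 in I2, and neighbouring pools overlapped. It did not pass the filter, and its identifier ends in x_at, which on these arrays marks probes shared with other sequences. Without the filter its largest difference among the 8 comparisons was -0.36, I3a minus I3b (adjusted p = 0.461, limma), the first-named group being higher where a difference is positive. Chat and Slc18a3, which define cholinergic neurons, and Mnx1, a motor neuron factor, were within 0.05 of the floor in every pool.

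RefSeq start regions of GRCm38.p6, 250 bases before to 50 after a start site, were at hand for 2 of the 5 members, and those 2 are shown. Capitals mark TATAAA, searched on both strands, which 13.6% of 32851 such windows hold. The windows are chr19:47014431-47014730 for Ina and chr15:99054924-99055223 for Prph, both on the plus strand. The Ina window has the annotated start of the gene as its start site, and the Prph window a start site 1595 bases inside the annotated gene, at 99055174, from which its positions are counted.
Ina: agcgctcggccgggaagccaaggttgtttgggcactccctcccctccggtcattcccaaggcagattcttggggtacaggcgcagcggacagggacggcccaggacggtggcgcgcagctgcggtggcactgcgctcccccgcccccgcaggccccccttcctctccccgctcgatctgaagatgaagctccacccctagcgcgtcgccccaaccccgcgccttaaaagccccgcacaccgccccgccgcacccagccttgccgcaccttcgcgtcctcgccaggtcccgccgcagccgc
Prph: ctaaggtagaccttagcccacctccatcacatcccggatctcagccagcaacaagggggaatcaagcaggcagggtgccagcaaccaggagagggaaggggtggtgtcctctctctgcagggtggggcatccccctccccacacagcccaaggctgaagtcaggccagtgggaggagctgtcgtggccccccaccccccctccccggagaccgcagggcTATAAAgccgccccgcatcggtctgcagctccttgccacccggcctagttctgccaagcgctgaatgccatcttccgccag
The Prph window held TATAAA once, with its first base at -31 from that start site, and the Ina window held no match. GGGCGG, the GC box, was found on the reverse strand at -111 and -12 in the Ina window and at -24 in that of Prph, and 35.7% of all windows hold it on either strand. CCAAT, held by 37.4% of windows, was in neither. GC content was 71.7% and 64.7%, against a median of 52.7%. The matches are descriptions of sequence.

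The balance between subunit genes also varied, which was read as the difference between their signals on the same array, less its mean over pools. Nefh relative to Nefm was highest in I2, at 1.49, and lowest in I3b, at -1.35, and I3a at -0.82. The 4 high pools lay between, from -0.08 in I1a to 0.37 in I1b. The I2 value rests on Nefm at 3.30, below the filter of 5. With signals under 5 set to 5, a setting chosen after the data were seen, I2 was at 0.033, below the 4 high pools at 0.16 to 0.61, while I3a at -0.58 and I3b at -1.11 stayed lowest.

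Relative to Nefl, Nefh was lowest in I3b with either Nefl probe set, at -2.18 with the main one and -1.66 with the other. Nefm relative to Nefl was lowest in I2 with either, with arrays at -2.14 and -1.86 by the main one and a mean of -0.96 by the other, and again this rests on Nefm below 5: with signals under 5 set to 5 the lowest pool was I3b, at -1.07, and I2 was at -0.55. Other parts of this pattern changed with the probe set: Nefh relative to Nefl in I2 was -0.51 with the main one and 0.53 with the other. The second probe set was added to this reading after the data were seen.

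**Figure D3:**
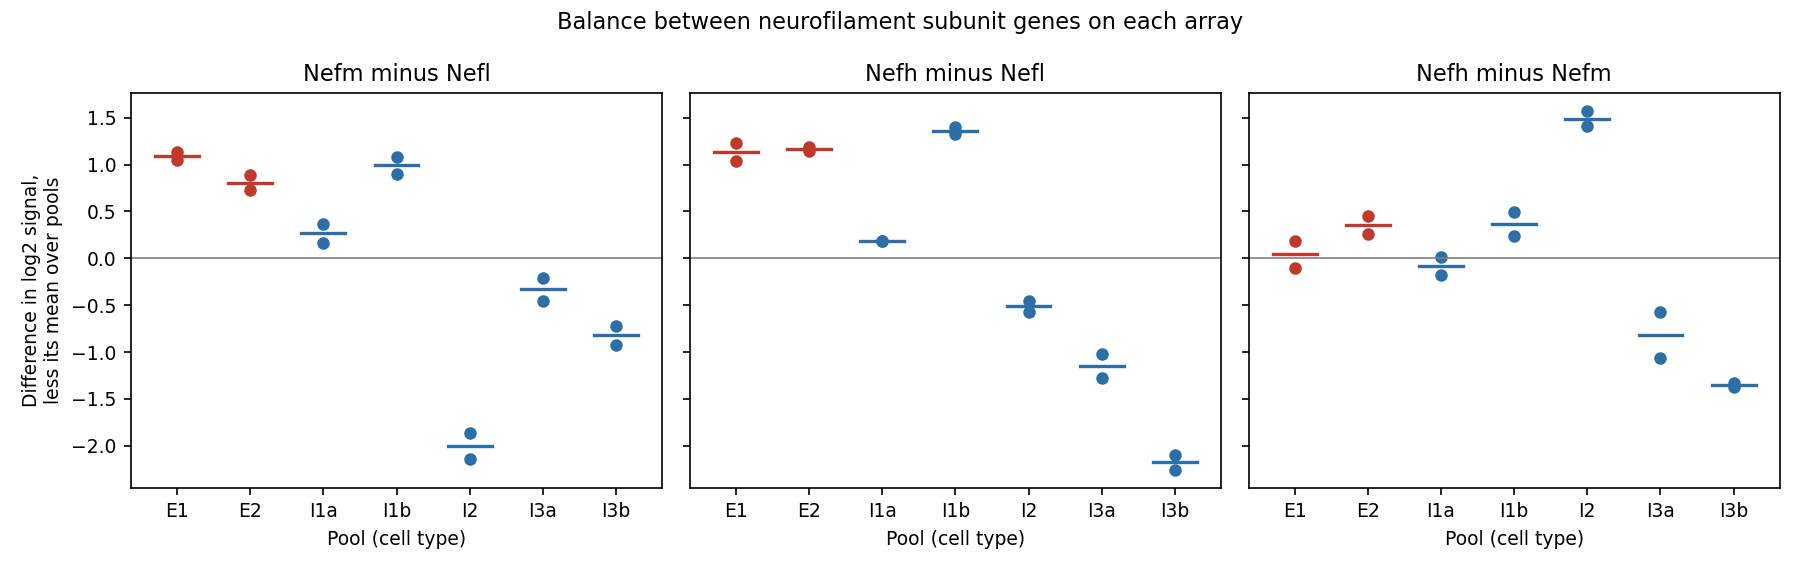
Difference in log2 signal between subunit genes on each array, less its mean over the 7 pools (points, arrays; bars, pool means; main Nefl probe set). Nefh minus Nefm is lowest in I3b, at -1.35, and highest in I2, at 1.49, where Nefm lies below 5 and the value falls to 0.033 with signals under 5 set to 5.

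Whether excitatory and inhibitory types differ was tested on pool means, 2 E pools against 5 I pools, with limma over 4409 genes. A gene was called at an adjusted p under 0.05 (Benjamini-Hochberg) and a size of 1 log2 unit or more. No member was called, as against 0.0227% of genes tested. The difference, E minus I, was 2.66 for Nefh (SE 1.07), 2.38 for Nefm (SE 1.06), 1.06 for Nefl (SE 0.44) and 0.79 for Ina (SE 0.39), with adjusted p = 0.753 for the 3 subunit genes and 0.773 for Ina. Nefl and Nefh were at an unadjusted p under 0.05, as were 6.19% of genes. Without E1 the Nefl difference was 0.58, and the second Nefl probe set gave 1.94. The pools overlapped for Nefl, Nefm and Nefh because I1b read above E2. For Ina on the main probe set the means of the E pools lay above all I pools, by 0.013, as did those of 5.99% of genes. The arrays of E2 and I1b overlapped across this gap. With the second Ina probe set E2, at 6.18, lay below I1a, I2 and I1b, and E minus I was 0.74 (adjusted p = 0.826).

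The 4 members tested had a median difference of 1.72, beside -0.0075 over all genes tested. They passed a filter that asks for 1 high pool, so this median describes them and supports nothing.

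The inhibitory families were compared within a fit of 4 families, E, I1, I2 and I3, on the 7 pool means. This fit has 3 residual degrees of freedom, and its comparisons share pools. I1 minus I3 was 3.14 for Nefh, an 8.80-fold higher signal (SE 0.56, adjusted p = 0.199). For Nefm it was 1.91 (SE 0.51, adjusted p = 0.322), for Nefl 0.70 (SE 0.39, adjusted p = 0.577) and for Ina 0.58 (SE 0.41, adjusted p = 0.654). No member and no gene of the 4409 (0%) was called by limma, where Nefm and Nefh were at an unadjusted p under 0.05 (11.2% of genes). Both I1 pools lay above both I3 pools for Nefl, Nefm and Nefh, an order seen in 16.9% of genes.

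Probe set and single pools moved several of these values. The second Nefl probe set gave 1.99 (adjusted p = 0.318) and the second Ina probe set 1.77 (adjusted p = 0.154). Without I3a the Nefl difference was 0.36, and without I1b that of Ina was -0.017. When the 14 arrays were fitted singly with a random effect for the pool, which adds technical residual degrees of freedom, the calls were Nefh (adjusted p = 0.000767) and Nefm (adjusted p = 0.0139), among 114 genes.

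E minus I3 gave the largest member difference of the pool comparisons, 4.03 for Nefh, a 16.3-fold higher signal (SE 0.56, adjusted p = 0.0955). Nefm differed by 2.74 (SE 0.51, adjusted p = 0.115), Nefl by 1.22 (adjusted p = 0.240) and Ina by 1.21 (adjusted p = 0.251). No gene was called (0%), and the 4 members tested were at an unadjusted p under 0.05, as were 16.0% of genes. For each of the 4 both E pools lay above both I3 pools, as in 25.4% of genes. Testing only genes that reach 7 in some pool, 2416 in all, called Nefh (adjusted p = 0.0225), among 31 genes. Nefh reaches 7 only in the E and I1 pools. It passes this filter through the pools where it is high, so the call is no added support. With the random pool effect the calls were Nefh, Nefm and Nefl, with adjusted p of 3.96e-05, 0.000749 and 0.0140, among 267 genes. The second probe sets gave 2.55 for Nefl (adjusted p = 0.137) and 1.80 for Ina (adjusted p = 0.0981), and the main Nefl value was 0.74 without E1.

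Against the I1 family the E pools showed small differences with intervals that include 0. E minus I1 was 0.89 for Nefh (95% interval -0.48 to 2.27), 0.83 for Nefm (-0.43 to 2.10), 0.51 for Nefl (-0.46 to 1.48) and 0.63 for Ina (-0.38 to 1.64). The adjusted p was 0.999 for each. No gene was called (0%), no member was at an unadjusted p under 0.05 (3.42% of genes), and the intervals do not show that the families are alike. Leaving out I1a brought the differences down to 0.38 for Nefl, 0.33 for Nefm, 0.17 for Nefh and 0.027 for Ina, and leaving out E1 to 0.040, 0.22, 0.43 and 0.62. Leaving out I1b brought those of Nefl, Nefm, Nefh and Ina up to 0.65, 1.33, 1.62 and 1.23, and leaving out E2 to 0.99, 1.45, 1.35 and 0.64. The second Ina probe set gave 0.037.

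I2, a type with 1 pool, was set against the 2 I3 pools in the same fit. Nefm was lower in I2, with a difference of -2.02 (SE 0.63, adjusted p = 0.208), and Nefl by the same sign at -0.60 (adjusted p = 0.601). The Nefl value was -0.25 without I3b and -0.94 without I3a. Nefh and Ina had the opposite sign, 0.55 (adjusted p = 0.760) and 0.95 (adjusted p = 0.428). No member was called, against 0.612% of genes, and Nefm was at an unadjusted p under 0.05, as were 16.0% of genes. With signals under 5 set to 5 the Nefm difference was -0.32, and with the random pool effect Nefm was called (adjusted p = 0.0178, among 320 genes). The second probe sets gave -0.93 for Nefl and 1.81 for Ina (adjusted p = 0.0880).

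**Figure D4:**
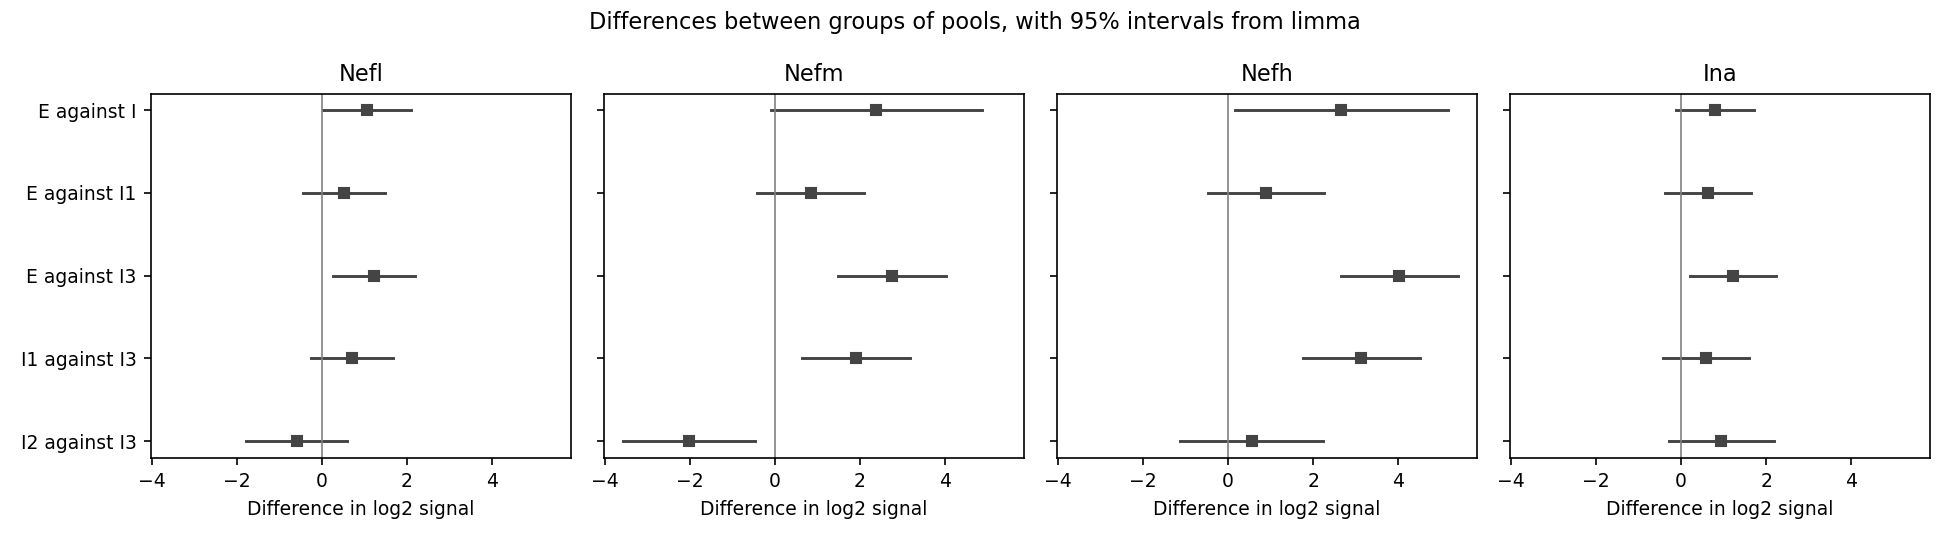
Difference in log2 signal between groups of pools for the 4 members tested, with 95% intervals from limma on pool means. The intervals of Nefm and Nefh for E against I3 and I1 against I3 lie above 0. So do those of Nefl and Ina for E against I3, and of Nefl and Nefh for E against I. That of Nefm for I2 against I3 lies below 0. The other intervals, with all those of E against I1, include 0, and none of the differences was called after adjustment over 4409 genes.

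Beside these results, some control transcripts of the array differed between the same pools. The bacterial control Lys read 10.37 to 10.84 in the 4 pools with high neurofilament signal and 11.51 or more in I2, I3b and I3a. Dap read 4.57 to 5.09 in the former and 5.86 to 6.33 in the latter. Phe and BioB did not separate these sets of pools: Phe was 6.08 in I3a and 6.19 in I1b, and BioB was lowest in I2 at 7.74 and highest in I3a at 9.62. The part of these controls in the results was not tested. Gapdh, read near the 3' end, the middle and the 5' end of its transcript, changed less. The 3' signal was 9.34 to 9.77, the middle 6.74 in I3b to 7.63 in E1, and the 5' signal 3.57 to 3.91, below 5. The 3' minus 5' difference, limited by that low 5' signal, was 5.62 to 6.04 over the pools. It was 5.86, 5.65, 6.04 and 6.02 in E1, E2, I1a and I1b, and 5.86, 5.62 and 5.62 in I2, I3a and I3b.

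The 2 types of a family were compared in 1 fit of the 14 arrays. Its p-values cover technical error alone and compare the pools, not the types. E1 was higher than E2 for the 3 subunit genes: Nefm was higher by 1.23 (SE 0.15, adjusted p = 0.000132) and was called. Nefl differed by 0.95 (SE 0.09, adjusted p = 1.62e-05) and Nefh by 0.92 (SE 0.14, adjusted p = 0.000468), both short of 1 log2 unit. Of genes tested, 7.39% were called, 4.20% higher in E1. Ina differed by 0.028 (adjusted p = 0.959), with a sign that turned under either rescaling and without single arrays. The second Nefl probe set differed by 1.29 (adjusted p = 5.14e-07) and was called, and the main one was called at 1.06 without E1 replicate 2. Between the same pools, 3 of 4 markers of GABA and glycine neurons were called higher in E1, among them Slc6a5 by 2.98 (adjusted p = 5.95e-08), and 2 of them after either rescaling. The fourth, Gad2, had the opposite sign at -0.71 (adjusted p = 0.00119). Their part in these differences was not tested.

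On the main probe sets I1a read lower than I1b for each of the 4 members tested. Nefh had a difference of -1.45 (SE 0.14, adjusted p = 9.53e-06), Ina of -1.20 (SE 0.26, adjusted p = 0.00281) and Nefm of -1.001 (SE 0.15, adjusted p = 0.000267), and these 3 were called. Nefl differed by -0.28 (adjusted p = 0.0248). Of genes tested 13.1% were called, 9.78% lower in I1a, and the median of all genes was -0.22, a shift towards I1b that normalization between arrays removes. After quantile normalization 222 genes were higher and 276 lower, in place of 148 and 431, and only Nefh of the members was called, at -1.17. Nefm was then at -0.73, Ina at -0.99 and Nefl, by its main probe set, at -0.037 (adjusted p = 0.699). On the deposited values the second Nefl probe set differed by -0.43 (SE 0.08, adjusted p = 0.000785, limma), short of a call. It was not read alone after rescaling, and the part of the shift in the Nefl difference was not tested.

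The Nefm call also ended without I1a replicate 1, at -0.98, or I1b replicate 1, at -0.93, and the Ina call without I1b replicate 2, at -0.95. The second Ina probe set had the opposite sign, 0.35 (adjusted p = 0.228). Nefh was called under each of these settings. Slc17a6 and Mbp were called lower in I1a too, at -1.88 (adjusted p = 2.95e-07) and -3.07 (adjusted p = 0.000155), and their part was not tested.

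Between I3a and I3b the member with the largest difference was Nefl. It was lower in I3a, at -0.69 (SE 0.09, adjusted p = 0.000141), short of a call, and the second probe set was called at -1.07 (adjusted p = 1.27e-06). Nefh had the opposite sign, 0.34 (adjusted p = 0.0803), Nefm differed by -0.20 (adjusted p = 0.360) and Ina by -0.061 (adjusted p = 0.893). After quantile normalization Nefh was at 0.49 (adjusted p = 0.00358) and Nefm at -0.032, and with single arrays left out Nefh ran from 0.16 to 0.51 and Nefm from -0.31 to -0.084. No member was called on its main probe set, against 9.91% of genes, and 41.0% of genes, Nefl and Nefh among them, were at an unadjusted p under 0.05. Calls over all genes split 132 higher and 305 lower in I3a, and 166 and 237 after quantile normalization. Slc17a6 and Mbp were called higher in I3a, by 3.74 (adjusted p = 3.48e-10) and 2.78 (adjusted p = 0.000490), and their part was not tested.

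Across the 7 pool means Nefl and Nefm correlated at r = 0.947, Nefm and Nefh at 0.884 and Nefl and Nefh at 0.846. Ina correlated with Nefh at 0.724, with Nefl at 0.459 and with Nefm at 0.423. The pools share their amplification and normalization, and 7 points carry little weight, so these values are descriptions. Among 2522 other genes with a range of at least 1 log2 unit, Nefm ranked 12 in likeness to Nefl, and Nefh ranked 107 in likeness to Nefm.

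The genes most like each member were named by Pearson r over the 7 pools. For Nefh they were Kcna1, an axonal potassium channel (r = 0.993), Pkm, a pyruvate kinase (0.984), Epb41l3, a membrane skeleton protein (0.980), Scn4b, a sodium channel subunit (0.979), and Syt2, a fast calcium sensor of release (0.973). For Nefm they were Cds1, an enzyme of phospholipid synthesis (0.996), Vmp1, a membrane protein of autophagy (0.983), Scn8a, the sodium channel of nodes and initial segments (0.982), C1ql3, a secreted synaptic protein (0.978), and Glrx5, a mitochondrial iron-sulfur protein (0.977). The leading genes differed between the subunits.

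Kcna1 followed Nefh over a range of 4.75 log2 units: its pool means were 10.02 (E1), 9.39 (I1b), 9.05 (E2) and 8.46 (I1a), then 6.40 in I2, 5.72 in I3a and 5.26 in I3b. That is the order of Nefh in all 7 pools. Scn4b read 10.15 in E1 and 2.82 in I3b. Cells were sorted into types partly by ion channel genes, so the channel levels are no independent evidence on the types. For Nefl the leading genes were Tank (0.983), Prune2 (0.975), Togaram1 (0.973), Hebp2 (0.971) and Rimkla (0.970), and for Ina they were Tmem167 (0.953), Bnip3 (0.949), Vps41 (0.944), Cks2 (0.940) and Zfp770 (0.937).

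**Figure D5:**
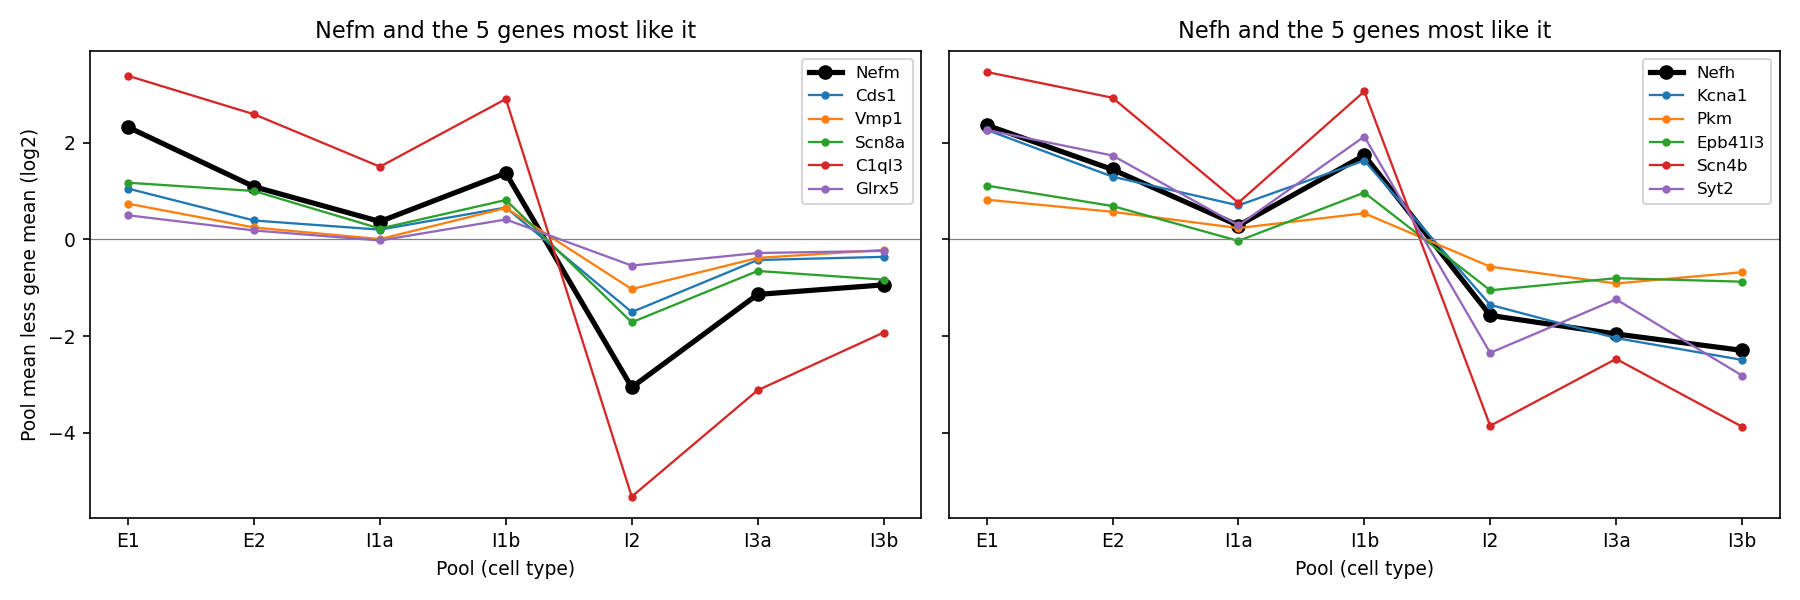
Pool means, less each gene's mean over pools (log2), for Nefm and Nefh (black) and the 5 genes most like each by Pearson r over 7 pools. Kcna1 follows Nefh over a similar range, 4.75 against 4.66, while Scn4b and C1ql3 span more.

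Genes that bind, move or modify neurofilaments were taken as a list of 30, of which 24 were on the array and 19 were tested. They include the kinesin heavy chains and dynein subunits that carry filaments along axons, linkers such as plectin, from Plec, and kinases of the tails. None was called for E against I, I1 against I3, E against I3, E against I1 or I2 against I3, where at most 0.612% of genes were. For I1 minus I3, 14 of the 19 were positive, against 46.2% of genes, with a median of 0.18 beside -0.035 over all genes. For E minus I3, 12 were positive, against 50.2% of genes, with a median of 0.35 beside 0.0022. The largest of the 19 for E minus I3 were Kif5c, a neuronal kinesin, at 0.87 (adjusted p = 0.258), and Trim2, a ubiquitin ligase that binds NF-L, at 0.82 (adjusted p = 0.271). For the subunit genes this difference was 1.22 to 4.03.

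In the comparisons of single pools, Fez1, a kinesin adaptor, was called higher in E1 than in E2, by 1.17 (adjusted p = 0.000633), which is 1 of 19 partners against 7.39% of genes. Plec was called lower in I1a than in I1b, at -1.15 (adjusted p = 6.05e-05), which is 1 of 19 partners against 9.78% of genes. This call ended after either rescaling. No partner was called between I3a and I3b, against 9.91% of genes.

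Proteins of the initial segment and node, where axons carry their sodium channels, were taken as a list of 17, with 15 on the array and 13 tested. None was called in the 5 pool comparisons, where at most 0.612% of genes were. Several genes of this list encode ion channels, and cells were sorted into types partly by such genes. Its differences are therefore no independent evidence on the types. For E minus I3, 12 of the 13 were positive, against 50.2% of genes, with a median of 0.82. The largest were Kcna1 at 4.05 (adjusted p = 0.0894) and Scn8a at 1.83 (adjusted p = 0.0955). Scn2a, the sodium channel of unmyelinated axons, was the 1 with the opposite sign, at -1.95 (adjusted p = 0.179). For I1 minus I3, 11 were positive, against 46.2% of genes, with a median of 0.64, and Scn2a was at -2.25 (adjusted p = 0.256). In I1a, 4 of 13 were called lower than in I1b (Cntnap2, Kcna2, Kcnq3 and Scn2a), against 9.78% of genes, and 2 after quantile normalization. Kcnq3, a potassium channel of the initial segment, was called in the other pairs. It was higher in E1 than E2 by 1.66, and lower in I3a than I3b at -1.11, as were 6.92% of genes. The latter call ended after quantile normalization and stayed with arrays centred on their median.

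Axonal microtubule proteins, the other main cytoskeletal system of axons, gave 9 genes tested of 16 on the array from a list of 21. For E minus I3 the subunits' direction was not seen over this list: 4 of 9 were positive, with a median of -0.10, and none was called. Tubb2b, a beta-tubulin of developing neurons, ran the opposite way at -1.75 (adjusted p = 0.214), and Tuba4a, an alpha-tubulin of mature neurons, was at 0.82 (adjusted p = 0.266). For I1 minus I3, 5 of the 9 were positive, with a median of 0.077 beside -0.035 over all genes. For I1a minus I1b, 2 were positive, with a median of -0.39 beside -0.22. After quantile normalization 3 were positive there, and 1 was called higher in I1a. Tubb2b was called lower in E1 than in E2, at -1.48 (adjusted p = 2.66e-07), as were 3.20% of genes, where Nefm was called higher.

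Of 18 other intermediate filament genes, 16 were on the array and none reached 5 in any pool. They include Vim and Nes, the filaments of immature neural cells, Gfap, that of astrocytes, and the lamins of the nuclear envelope. The highest pool mean among them was 3.44, for Krt5, and 6 of the 16, Gfap and Nes among them, were at or within 0.05 of the floor in every pool. The lamin genes Lmna and Lmnb1 read at most 3.07 and 2.85, although lamins occur in all nuclei, so a low signal here does not show that a gene is silent.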

How the data were processed

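The deposited values are log2 signals of Affymetrix arrays, made with affy and GCRMA (background adjustment, normalization, summary per probe set) per the submitters' processing notes. Versions are not given in the sources used here, and the scale was read from the range of values. Their number, 14 arrays of 7 pools, limits the precision. R 4.3.3 with limma 3.58.1, and pandas 2.3.3 and matplotlib 3.10.9 were used.

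Of 30843 probe sets, 64 are controls and 24034 map to 1 symbol, of which 23883 matched RefSeq of GRCm38.p6 by Entrez identifier. Each of 16244 genes was read by its probe set with the highest mean. Fits were made with lmFit and eBayes (variance trend on signal), on pool means or, between types of a family, on arrays, and were tested on simulated data. Alternatives were other filters, scalings, floors and probe sets, no trend, single arrays or pools left out, a random pool block and a replicate block.

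The members, lists and comparisons were chosen with earlier results of these data known. Genes named are the members, the 5 most correlated with each, and up to 4 per list and comparison with the largest difference. Single genes named beyond these, as called list members, markers or genes at the floor, were chosen after their values were seen. Where in its transcript a probe set lies was not analysed here.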

Additional observations from a re-analysis of the deposited data

How the results depend on the processing

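Of 32 differences of members, 29 kept their sign under each alternative run on the main probe sets or their mean. The second probe sets turned a further sign, that of Ina for I1a minus I1b, from -1.20 to 0.35. The remaining 3 were Ina differences: I1 minus I3 ran from -0.017 to 1.19 with single pools or arrays left out, E1 minus E2 from -0.44 to 0.50, and I3a minus I3b from -0.19 to 0.062. Under quantile normalization E1 minus E2 was -0.00081 and I3a minus I3b 0.087, and with medians of arrays centred they were -0.022 and 0.036. The cause was not tested.

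The random pool block called 2 members for I1 against I3, 3 for E against I3 and 1 for I2 against I3, in place of 0. Its technical arrays add residual degrees of freedom, and the cause of the added calls was not tested. A filter at 7, which Nefh passes only through the E and I1 pools, called 1 for E against I3, among 31 genes. For E1 against E2 the count was 2 with the mean of all probe sets, and 1 to 2 with single arrays left out. For I1a against I1b it was 1 after either rescaling, in place of 3. Members ranged over pools by 2.40 for Nefl after either rescaling, and by 4.13 for Nefl and 2.15 for Ina with the other probe set.

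With single pools left out, r was 0.929 to 0.963 for Nefl and Nefm, 0.780 to 0.954 for Nefl and Nefh, 0.834 to 0.981 for Nefm and Nefh, 0.261 to 0.758 for Nefl and Ina, 0.256 to 0.876 for Nefm and Ina, and 0.645 to 0.876 for Nefh and Ina.

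Deviations of same-numbered arrays correlated at -0.12 to 0.21 between pools, with a median of -0.00034, and over 0.1 in 4 of 21 pairs of pools. These values do not settle whether replicate numbers pair the arrays of some pools. With a replicate block 1 member was called for E1 against E2, 3 for I1a against I1b and 0 for I3a against I3b, as without it (327, 579 and 436 genes in all). Genes called in all, with no array or pool left out, ran from 0 to 6 for E against I (1 in the main setting), 0 to 114 for I1 against I3 (0), 0 to 267 for E against I3 (0), 0 to 7 for E against I1 (0), 15 to 320 for I2 against I3 (27), 187 to 385 for E1 against E2 (326), 304 to 684 for I1a against I1b (579) and 218 to 518 for I3a against I3b (437). A filter at 7 leaves out Ina. Low signal, below 5, limits Nefm in I2, Prph, and the second Ina probe set in I3a and I3b. In those I3 pools Nefh, at 5.04 to 5.64, and Nefm, at 5.15 to 5.54, were close to the filter. The size of their differences and folds with I3 may therefore depend on how low signals are read.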
